A study of Rattus norvegicus with 6 samples.

Results

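The genes described here are 41 genes of mitosis, followed in the renal cortex of rats given N,N'-dinitrosopentamethylenetetramine (DNPT), an N-nitroso compound, and of rats given corn oil. They were taken by name from a list of mitotic genes, drawn up with earlier results of these data known, and no threshold on a measured value chose them. A probe belonged to a gene when the RefSeq accession of the probe named it. Of the 41 genes, 36 were matched, through 68 of the 61537 non-control probes of the array, and all 36 passed the filter on dim probes. Cdc25c, Bub1b, Cenpe, Anln and Top2a were matched by no probe, and no value is given for them. The array named 15645 genes in all.

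The samples were 6 male Sprague-Dawley (Crl:CD(SD)) rats, 5 weeks old when bought, with 1 sample of renal cortex per rat. DNPT was given to 3 of them at 200 mg/kg/day over 4 weeks, and corn oil alone, the vehicle, to the other 3 over an equal 4 weeks. One Agilent array in 1 colour was used per rat, and 42116 to 45167 probes were well above background on an array, fewest in DNPT replicate 3. The 3 vehicle samples and DNPT replicate 1 were on slide 1, while DNPT replicates 2 and 3 were on slide 2, so slide and treatment can be told apart only through DNPT replicate 1. Slide 1 and slide 2 were scanned on different days, so the same holds for scan day. Values below are log2 of the processed signal relative to the 75th percentile of the array, called the signal, and a change is the DNPT mean minus the vehicle mean on that log2 scale. A probe's signal depends on its sequence, so no gene is compared with another in level. Precision is limited by how few arrays there were, and because the whole cortex was measured, more dividing cells and more RNA per dividing cell cannot be told apart. Markers of the proximal tubule, the main cell type of the cortex, were bright in all 6 samples. Of 8 such markers 7 had positive changes, and their medians in DNPT replicates 1, 2 and 3 were 0.13, 0.22 and 0.12 above the vehicle mean. The glucose transporter Slc5a2 (0.42, SE 0.11) and the organic anion transporter Slc22a8 (0.21, SE 0.08) were higher at an unadjusted limma p under 0.05, without overlap of the groups, and the summed linear signal of the markers was 1825 to 2102 in DNPT and 1638 to 1794 in vehicle rats.

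Entry into mitosis is driven by the kinase Cdk1 bound to cyclin A or a B-type cyclin. The same burst of transcription in G2 supplies the spindle motors, the kinetochore that ties chromosomes to microtubules, the spindle checkpoint that delays anaphase, and the proteins that separate sister chromatids and split the cell. Most tubule cells of an adult kidney are quiescent and enter the cycle mainly after injury.

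The members stood high in 2 of the DNPT rats and not in the third. In DNPT replicate 2, all 36 members lay above the mean of the vehicle rats, with a median difference of 0.72 and a range of 0.14 to 1.44 on the log2 scale. In DNPT replicate 1, 32 of 36 lay above it, with a median difference of 0.31. In DNPT replicate 3, 25 of 36 lay below it, with a median difference of -0.23. The vehicle rats were not alike either. Vehicle replicate 1 had the lowest signal of the vehicle rats for 30 members, against 36.2% of all features, and a median difference of -0.20 from the vehicle mean, against 0.10 and 0.12 in vehicle replicates 2 and 3.

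**Figure D1:**
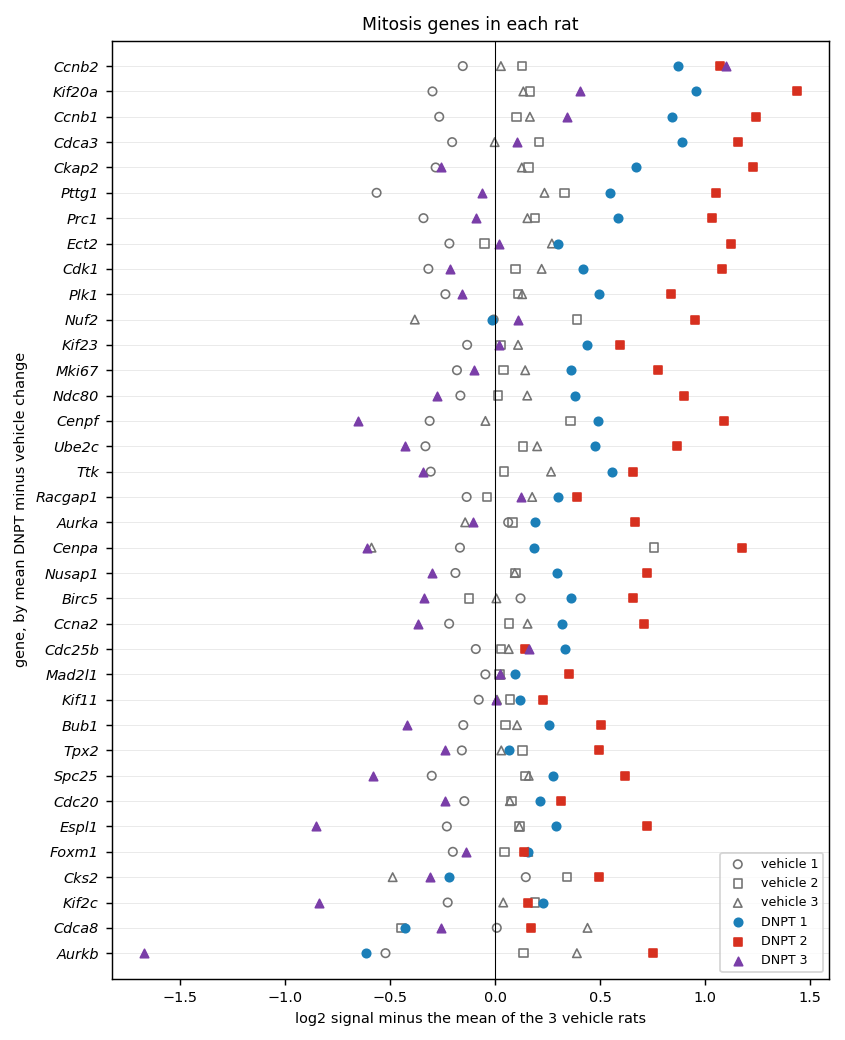
Signal of each of the 36 measured mitosis genes in each rat, as the log2 difference from the mean of the 3 vehicle rats (x axis), with genes ordered by their mean DNPT minus vehicle change (y axis). Open grey symbols are vehicle rats and filled symbols DNPT rats; DNPT replicate 2 is the highest of the 6 rats for 31 genes and DNPT replicate 3 the lowest for 15.

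Set against all 3 vehicle rats one by one, DNPT replicate 2 lay above every vehicle rat for 33 of 36 members, while 34.8% of all 34915 features tested did so in that rat, and below every one for 0 members (29.9% of all features). A feature is a named gene or an unnamed probe. DNPT replicate 1 lay above every vehicle rat for 29 members and below every one for 1, Aurkb, where the shares over all features were 30.7% and 23.9%. DNPT replicate 3 lay above every vehicle rat for 4 members, against 33.8% of all features, and below every vehicle rat for 15, against 34%. Of the 12687 named genes tested, 32.8%, 39.8% and 39.0% lay above every vehicle rat in DNPT replicates 1, 2 and 3. The shares below every vehicle rat were 23.5%, 25.7% and 30.0%. DNPT replicate 2 was the highest of the 6 samples for 31 members (19% of all features), and DNPT replicate 3 was the lowest for 15 (21.8% of all features). The descending order DNPT replicate 2, 1, 3 held for 30 of the 36 members and for 14.3% of all features. No test is given for these counts, because each sets 1 rat against the others.

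**Figure D2:**
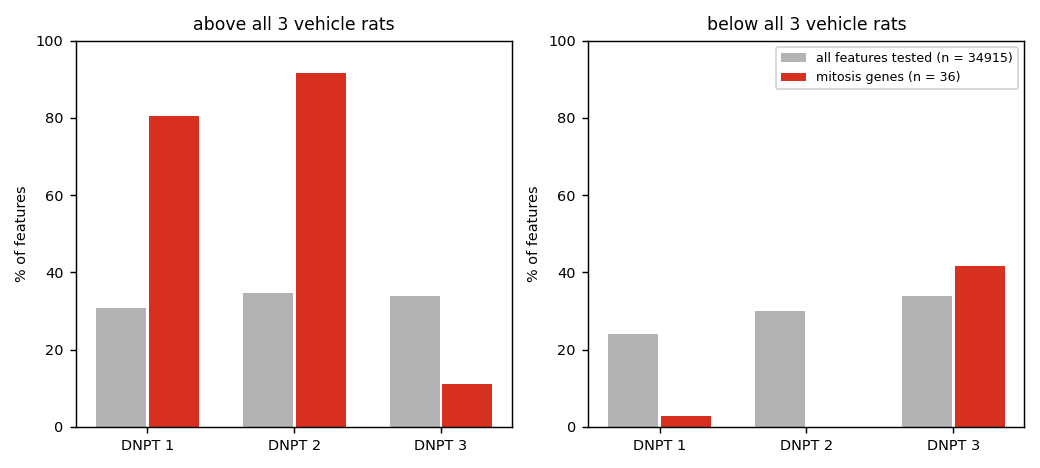
Share of features, in percent from 0 to 100, whose signal in 1 DNPT rat lay above (left) or below (right) all 3 vehicle rats. Red bars are the 36 mitosis genes and grey bars all 34915 features tested; the mitosis genes reach 91.7% above in DNPT replicate 2 and 41.7% below in DNPT replicate 3.

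The comparison of the groups addresses which of these transcripts differ after 4 weeks of DNPT. In the limma fit over all features with Benjamini-Hochberg adjustment, 0 members passed an adjusted p of 0.05, as did 0% of all features. At an unadjusted limma p under 0.05, 4 members were higher in DNPT rats, namely Ccnb1, Ccnb2, Kif20a and Cdca3, and 0 were lower. Over all features 5.95% were higher and 6.16% lower at that p. Changes were positive for 32 of 36 members, against 51.9% of all features, and the median change was 0.26, against 0.01 over all features. All 3 DNPT rats lay above all 3 vehicle rats for 4 members (Ccnb1, Ccnb2, Kif20a and Cdc25b), a share of 11.1% that is near the 11.9% of all features, and below them for 0 members (8.32% of all features). Of the 12687 named genes tested, 57.0% had positive changes, with a median change of 0.04. All 3 DNPT rats lay above the vehicle rats for 1880 of these named genes and below them for 937.

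These counts depended on single rats. Without DNPT replicate 3 the median change was 0.51 and 20 members were higher at an unadjusted limma p under 0.05. Without DNPT replicate 2 the median was 0.05, with 23 positive changes, and 3 members were higher and 1 lower at that p. The number higher was 1 without vehicle replicate 1 (median 0.16), 2 without DNPT replicate 1 and 2 with slide as a block, a fit that rests on DNPT replicate 1 alone against the vehicle rats. Over all features, the number at an unadjusted limma p under 0.05 in either direction also moved, from 2393 to 8737 over 18 alternatives. The member counts of different fits are therefore not comparable by themselves. Without DNPT replicate 1, Ccnb2 was the 1 member that passed the adjusted threshold (change 1.08, limma adjusted p = 0.0318). That fit called 623 features in all. In it all vehicle rats were on slide 1 and DNPT replicates 2 and 3 on slide 2, so slide and treatment cannot be told apart. The limma adjusted p of Ccnb2 ranged from 0.0318 to 0.551 over all 18 alternatives.

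Ccnb2 encodes cyclin B2, a B-type cyclin that activates Cdk1. Its signal was -2.23, -2.03 and -2.001 in DNPT replicates 1, 2 and 3, and -3.26, -2.97 and -3.07 in vehicle replicates 1, 2 and 3. All 3 DNPT rats lay above all 3 vehicle rats, and here DNPT replicate 3 was as high as replicate 2. The means were -2.09 ± 0.13 (SD, n = 3) and -3.10 ± 0.14, a change of 1.01 (SE 0.12), or 2.02-fold (limma unadjusted p = 0.00014, adjusted p = 0.173). The unadjusted p was under 0.05 in all 18 alternatives, with changes of 0.78 to 1.08.

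Ccnb1 encodes cyclin B1, the principal partner of Cdk1 at mitotic entry. Its signal was -2.15, -1.75 and -2.66 in the DNPT rats and -3.26, -2.90 and -2.83 in the vehicle rats, in the order of the replicates. The groups did not overlap, but DNPT replicate 3 lay closer to the highest vehicle rat than to the other DNPT rats. The change was 0.81 (SE 0.25), or 1.75-fold (limma unadjusted p = 0.0198, adjusted p = 0.385), and it was 0.84 in DNPT replicate 1, on the slide of the vehicle rats, where the unadjusted p with slide as a block was 0.088. Both cyclins were measured by 1 probe each.

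Kif20a, a kinesin of the central spindle needed for cytokinesis, had signals of -0.70, -0.22 and -1.26 in the DNPT rats and of -1.96, -1.49 and -1.53 in the vehicle rats. The groups did not overlap, with the same order of DNPT rats as for Ccnb1. Its change was 0.93 (SE 0.29), or 1.91-fold (limma unadjusted p = 0.0181, adjusted p = 0.383; unadjusted p = 0.087 with slide as a block). Cdca3, a part of the ubiquitin ligase that removes the Cdk1 inhibitor Wee1, had signals of -0.37, -0.10 and -1.15 in the DNPT rats and of -1.46, -1.05 and -1.26 in the vehicle rats. DNPT replicates 1 and 2 stood well above the vehicle rats, and DNPT replicate 3 lay among them. The change was 0.71 (SE 0.29; limma unadjusted p = 0.0494, adjusted p = 0.412), and the unadjusted p was under 0.05 in 11 of 18 alternatives.

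Cdc25b, a phosphatase that removes inhibitory phosphates from Cdk1, was the other member without overlap. Its signal was -0.29, -0.48 and -0.46 in the DNPT rats and -0.71, -0.59 and -0.55 in the vehicle rats. The difference was small but did not follow the order of DNPT rats seen in most members, since replicate 1 was the highest. The change was 0.21 (SE 0.09; limma unadjusted p = 0.069, adjusted p = 0.43). Its other 2 probes also showed no overlap, with changes of 0.30 and 0.33.

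**Figure D3:**
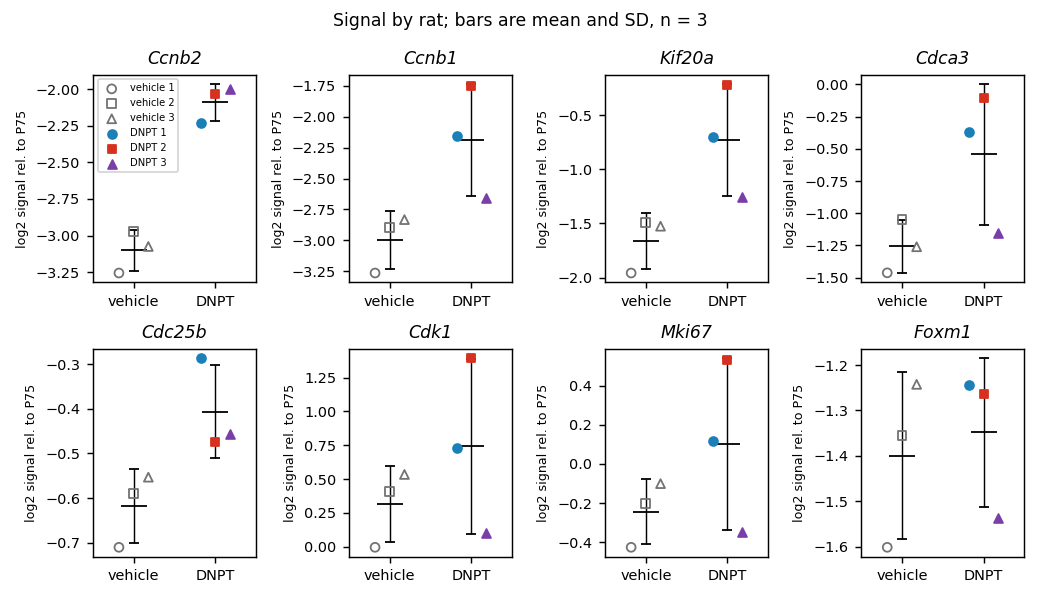
Log2 signal relative to the 75th percentile of the array (y axis) in each vehicle and DNPT rat for 8 mitosis genes, with bars for the mean and SD of 3 rats and a separate scale in each panel. All DNPT rats lie above all vehicle rats for Ccnb2, Ccnb1, Kif20a and Cdc25b, while for Cdca3, Cdk1, Mki67 and Foxm1 DNPT replicate 3 lies within the vehicle range.

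Many mitotic promoters carry CCAAT boxes, which bind the factor NF-Y, and a short element called CHR, bound by complexes that hold the genes silent in quiescent cells and switch them on in G2. Because most members shared 1 order of the DNPT rats, their promoters were searched, using RefSeq sequences of build GRCr8 that run from 250 bases before to 50 bases after the annotated start of each gene. CHR was searched as TTTGAA and TTCGAA and the box as CCAAT, on both strands, and matches of different motifs may overlap. Of 35 member promoters in the table, 26 held TTTGAA, 3 held TTCGAA and 27 held CCAAT, while among all 27457 promoters of the same length the shares were 18.1%, 1.77% and 37.7%. These 35 include Cdc25c, Bub1b, Cenpe, Anln and Top2a, which were not measured. They lack the measured Ccna2, Tpx2, Ube2c, Aurkb, Racgap1 and Foxm1, so the counts are not those of the genes that shared the order. At least 2 CCAAT together with 1 of the CHR forms occurred in 16 of 35 member promoters (45.7%) and in 2.34% of all promoters. A match is a run of letters, not a shown site, and these genes are textbook examples of such promoters.

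The following runs are the 150 bases before the start of the 5 members with the largest changes or a central role, 5′ to 3′ on the strand of the gene, with CCAAT and the CHR forms in capitals on either strand (ATTGG and TTCAAA are the reverse). They are shown because Ccnb2 and Cdk1 hold both kinds of motif and the other 3 hold CCAAT alone in the searched window. The members with the largest changes, Ccnb2, Kif20a and Ccnb1, thus include promoters with and without a CHR form in that window. The run of Ccnb2 is chr8:79981659-79981808 (minus strand), of Cdk1 chr20:19265143-19265292 (plus), of Ccnb1 chr2:33655226-33655375 (minus), of Kif20a chr18:26504272-26504421 (plus) and of Cdca3 chr4:159321053-159321202 (plus).
Ccnb2: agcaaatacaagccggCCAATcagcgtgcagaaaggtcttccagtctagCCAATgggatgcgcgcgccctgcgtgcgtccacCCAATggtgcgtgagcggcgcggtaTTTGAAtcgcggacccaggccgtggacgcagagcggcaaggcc
Cdk1: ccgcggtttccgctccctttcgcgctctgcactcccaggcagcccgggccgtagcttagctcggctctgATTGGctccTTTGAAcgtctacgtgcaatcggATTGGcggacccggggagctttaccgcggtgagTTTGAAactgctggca
Ccnb1: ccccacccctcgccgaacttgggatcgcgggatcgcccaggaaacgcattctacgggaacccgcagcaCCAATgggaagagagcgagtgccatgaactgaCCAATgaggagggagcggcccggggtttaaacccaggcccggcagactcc
Kif20a: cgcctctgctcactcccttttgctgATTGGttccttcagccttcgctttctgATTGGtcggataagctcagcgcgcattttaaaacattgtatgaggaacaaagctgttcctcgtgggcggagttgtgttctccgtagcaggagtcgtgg
Cdca3: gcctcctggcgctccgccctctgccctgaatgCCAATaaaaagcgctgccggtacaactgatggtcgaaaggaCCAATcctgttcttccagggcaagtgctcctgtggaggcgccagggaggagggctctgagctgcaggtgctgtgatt
The run of Ccnb2 holds CCAAT at positions -134, -101 and -68 and TTTGAA at -43, counted back from the start. In Ccnb1 the boxes are at -82 and -50. Where no CHR form is marked, the searched letters are not in that window, and nothing follows from this for any factor.

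Among the cyclins, Cdk1 and its activators, 7 of 8 genes were measured and 6 had positive changes, with a median of 0.43. Cdk1, the kinase itself, had signals of 0.73, 1.39 and 0.10 in the DNPT rats and of -0.0052, 0.41 and 0.53 in the vehicle rats. The groups overlapped through DNPT replicate 3, and the change was 0.43 (SE 0.35, limma adjusted p = 0.605). Ccna2, cyclin A2, followed the same pattern, with differences from the vehicle mean of 0.32, 0.71 and -0.37 in DNPT replicates 1, 2 and 3. Cks2, a small subunit that helps Cdk1 find its substrates, was among the brightest member probes, with signals of 0.54, 1.25 and 0.45 in the DNPT rats and of 0.90, 1.10 and 0.27 in the vehicle rats. Its change was -0.01 (SE 0.30), with no separation of the groups.

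Plk1, Aurka and the Aurka activator Tpx2 had positive changes with an unadjusted limma p above 0.05. Plk1, a kinase of centrosomes and kinetochores, had differences of 0.49, 0.84 and -0.16 in the 3 DNPT rats (change 0.39, SE 0.27). Aurka, the spindle pole kinase, had differences of 0.19, 0.67 and -0.10, and Tpx2 0.07, 0.49 and -0.24. The spindle assembly checkpoint was measured through Bub1, Mad2l1 and Ttk, whose changes were 0.11, 0.16 and 0.29. Bub1 was the lowest of all rats in DNPT replicate 3 (-2.59, against -2.32 to -2.07 in the vehicle rats). Mad2l1, an inhibitor of the anaphase-promoting complex, varied little, from -2.04 to -1.65 over all 6 rats.

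Genes that trigger anaphase showed the same split between DNPT rats. Pttg1, securin, which restrains the protease separase, had signals of 0.61, 1.11 and -0.01 in the DNPT rats and of -0.51, 0.39 and 0.29 in the vehicle rats. DNPT replicates 1 and 2 were above every vehicle rat and replicate 3 was within their range (change 0.51, SE 0.36). Espl1, separase, had differences of 0.29, 0.72 and -0.85. Ube2c, the ubiquitin-conjugating enzyme of the anaphase-promoting complex, had differences of 0.47, 0.87 and -0.43. Cdc20, the activator of that complex, had smaller ones of 0.21, 0.32 and -0.24.

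At the centromere and kinetochore all 5 measured genes had positive changes, of 0.10 (Spc25) to 0.35 (Nuf2) for the brightest probe of each gene, and none of these probes had an unadjusted limma p under 0.05. Of the other Cenpf probes, 1 had a change of 0.82 (SE 0.29; limma unadjusted p = 0.033). Nuf2, Ndc80 and Spc25 are subunits of the complex that grips microtubules. In DNPT replicate 2 they lay 0.95, 0.90 and 0.62 above the vehicle mean, and in replicate 3 they lay at 0.11, -0.28 and -0.58. Cenpf, a large kinetochore protein, ran from -3.43 in DNPT replicate 2 to -5.18 in DNPT replicate 3, beyond the vehicle range of -4.83 to -4.16 on both sides. Cenpa, the histone variant that marks centromeres, was well above background on only 2 arrays of each group.

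The chromosomal passenger complex, which corrects faulty attachments, held 2 of the 4 negative changes among the members. Aurkb, its kinase, had a change of -0.51 (SE 0.63) and was well above background on 1 DNPT and 2 vehicle arrays, so its values lie near the limit of detection. Cdca8, borealin, had a change of -0.17 (SE 0.27), and Birc5, survivin, one of 0.23 (SE 0.26). Birc5 had differences of 0.36, 0.66 and -0.34 in the 3 DNPT rats. Incenp, a further subunit of the complex, was not a member and is counted below among the further centromere genes. Its change was positive, with signals of 0.77 to 1.17 in the DNPT rats (limma unadjusted p = 0.077, adjusted p = 0.435). Vehicle replicate 1, at 1.04, lay within that range, and vehicle replicates 2 and 3 lay at -1.61 and -1.21. The negative changes of Aurkb and Cdca8 therefore do not describe the whole complex.

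Among spindle motors and microtubule binders, Kif11, the motor that pushes spindle poles apart, was the brightest member probe. Its signal was 2.29, 2.40 and 2.18 in the DNPT rats and 2.10, 2.25 and 2.18 in the vehicle rats. The values of both groups lay in 1 narrow band, and the change was 0.12 (SE 0.10, limma adjusted p = 0.609). Ckap2, a spindle protein, spread widely in contrast, with differences of 0.67, 1.23 and -0.26 (change 0.55, SE 0.38). Nusap1, which bundles microtubules near chromosomes, had a change of 0.24. Kif2c, a kinesin that takes microtubules apart, had a change of -0.15 and was well above background on 2 of 3 DNPT arrays.

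Genes of the central spindle and cytokinesis had the largest median change of the functional groups, 0.48 over 5 measured genes. Besides Kif20a these were Prc1, Ect2, Kif23 and Racgap1. Prc1, which bundles the overlapping microtubules of the central spindle, had differences of 1.03 in DNPT replicate 2 and -0.09 in replicate 3. Ect2, the exchange factor that starts the contractile ring, had differences of 1.12 and 0.02. Kif23 and Racgap1, the 2 parts of the centralspindlin complex, had changes of 0.35 (SE 0.17) and 0.27 (SE 0.12), with unadjusted limma p of 0.0881 and 0.0701, and DNPT replicate 3 lay within the vehicle range for both.

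Mki67, the proliferation antigen, had signals of 0.12, 0.53 and -0.34 in the DNPT rats and of -0.43, -0.20 and -0.10 in the vehicle rats. DNPT replicates 1 and 2 were above every vehicle rat, DNPT replicate 3 was not, and the change was 0.34 (SE 0.24, limma adjusted p = 0.545). Foxm1, the transcription factor that drives the G2 and M genes, varied little between rats. Its signal was -1.24, -1.26 and -1.54 in the DNPT rats and -1.60, -1.36 and -1.24 in the vehicle rats, with a change of 0.05 (SE 0.14) that was -0.06 as the mean of its 2 probes.

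Several members had more than 1 probe, which gave a second reading of the same RNA and not a further rat. Of 17 genes with at least 2 tested probes, 12 had changes of 1 sign in all of them. The other 5 were Espl1, Foxm1, Kif11, Kif2c and Mki67. The 5 probes of Mki67 had changes of -0.05 to 0.34, and the brightest of them, used for the gene, gave the largest. All 5 were nevertheless highest in DNPT replicate 2. The 3 probes of Ckap2 had changes of 0.49 to 0.63 and lay close together in each rat, whereas the 3 tested probes of Cenpf ran from 0.31 to 0.82 and differed in DNPT replicate 3, at -0.65, -0.22 and 0.30.

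**Figure D4:**
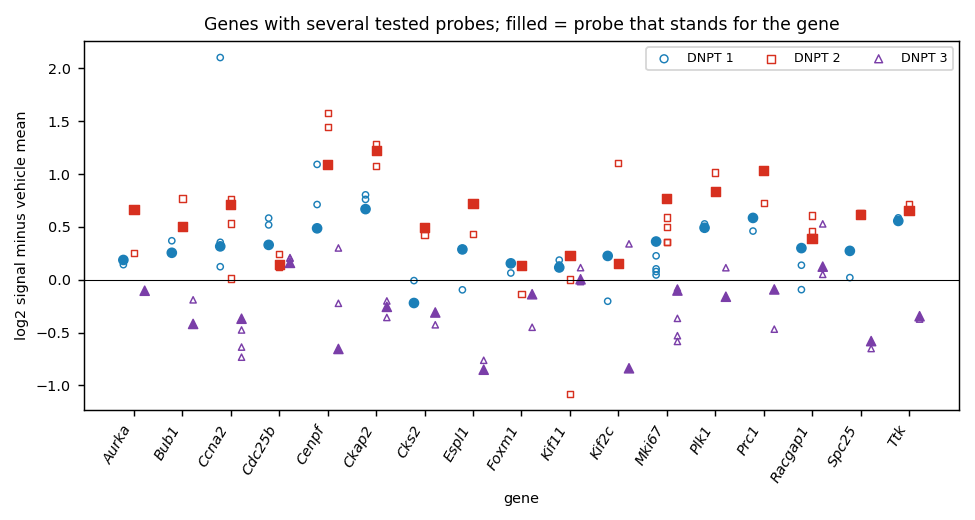
Log2 signal in each DNPT rat minus the vehicle mean (y axis) for every tested probe of the 17 mitosis genes with at least 2 tested probes (x axis). Filled symbols mark the probe that stands for the gene; in most genes the probes keep the order of DNPT replicates 2, 1 and 3, as for Ckap2, with changes of 0.49 to 0.63.

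The spread between rats was larger in the DNPT group for 32 of 36 members. The median SD was 0.52 in DNPT and 0.21 in vehicle rats, while over all features it was 0.18 and 0.14, and 61.3% of all features had the larger SD in DNPT rats. This difference in spread was not tested. The vehicle arrays were all on slide 1, whereas the DNPT arrays were on slides 1 and 2. The DNPT spread therefore includes any difference of slide and scan day, which the vehicle spread does not.

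Related genes outside the list had smaller median changes. Of 37 further spindle, motor and cytokinesis genes, 28 were tested, 20 had positive changes and the median change was 0.10, with medians of 0.13, 0.47 and -0.14 in DNPT replicates 1, 2 and 3. At an unadjusted limma p under 0.05 1 was higher, the centrosome kinase Nek2 (0.33, SE 0.13), and 1 was lower, Parpbp (-0.46, SE 0.16), an inhibitor of recombination. The microtubule-depolymerising kinesin Kif18b had a change of 0.42 (SE 0.20). Among 24 tested of 35 further centromere, kinetochore and checkpoint genes the median was 0.08, and 1 was higher and 1 lower. Ska2, which stabilises attachments, had a change of 0.30 (SE 0.11), and Nsl1, well above background on 3 vehicle and 0 DNPT arrays, had a signal at least 1.18-fold higher in the vehicle group (limma adjusted p = 0.38). That bound sets the vehicle mean against the higher, on each DNPT array, of the probe's own signal and the lowest signal well above background. Condensin and cohesin genes (11 tested of 17) had a median of 0.05, and subunits and regulators of the anaphase-promoting complex (15 of 16) one of 0.08, with 0 genes in either list at an unadjusted limma p under 0.05. None of the genes in these lists passed an adjusted p of 0.05.

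DNA replication genes, whose products act in the S phase before mitosis, had another order of the DNPT rats in their medians. Their median change was 0.02 over 23 tested of 27, with medians of -0.04, 0.07 and 0.10 in DNPT replicates 1, 2 and 3. DNPT replicate 3 lay above all vehicle rats for 11 of these 23 genes, where it did so for 4 of 36 mitosis genes, 33.8% of all features and 39.0% of named genes. Rrm2, the regulated subunit of ribonucleotide reductase, had signals of 1.15, 1.80 and 0.92 in the DNPT rats and of 0.42, 0.84 and 0.87 in the vehicle rats, without overlap (change 0.58, SE 0.26, limma adjusted p = 0.43). Tk1, thymidine kinase, also showed no overlap (0.23, SE 0.10). Pcna, the clamp of the replicative polymerases, was at -0.04 (SE 0.11), and 0 genes of the list had an unadjusted limma p under 0.05.

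Upstream of mitosis, Ccnd1, the G1 cyclin induced by growth signals, had signals of 3.75, 3.67 and 4.44 in the DNPT rats and of 2.58, 2.89 and 2.90 in the vehicle rats. The groups did not overlap, and DNPT replicate 3, low for most mitosis genes, was the highest. The change was 1.16 (SE 0.23; limma unadjusted p = 0.003, adjusted p = 0.294). It was the 1 gene of 13 tested G1 cyclin, kinase and E2F genes at an unadjusted p under 0.05, and the median of that list was 0.06. E2f1, which activates S phase genes, was at -0.30 (SE 0.12). Among 12 tested brakes on the cell cycle the median was -0.08, with 1 higher and 3 lower at an unadjusted limma p under 0.05. The higher one was Wee1, the kinase that inhibits Cdk1 (0.47, SE 0.15). The lower ones were Btg2, an antiproliferative target of p53 (-0.49, SE 0.12), Cdkn1a, p21 (-0.37, SE 0.13), and Cdkn2a (-0.65, SE 0.22), all with 3 DNPT values below 3 vehicle values. Genes of the MuvB, DREAM and B-Myb complexes, which control transcription of the members, had a median of -0.03, with Rbl2, p130, at 0.24 (SE 0.12) and 0 of 11 at an unadjusted p under 0.05.

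**Figure D5:**
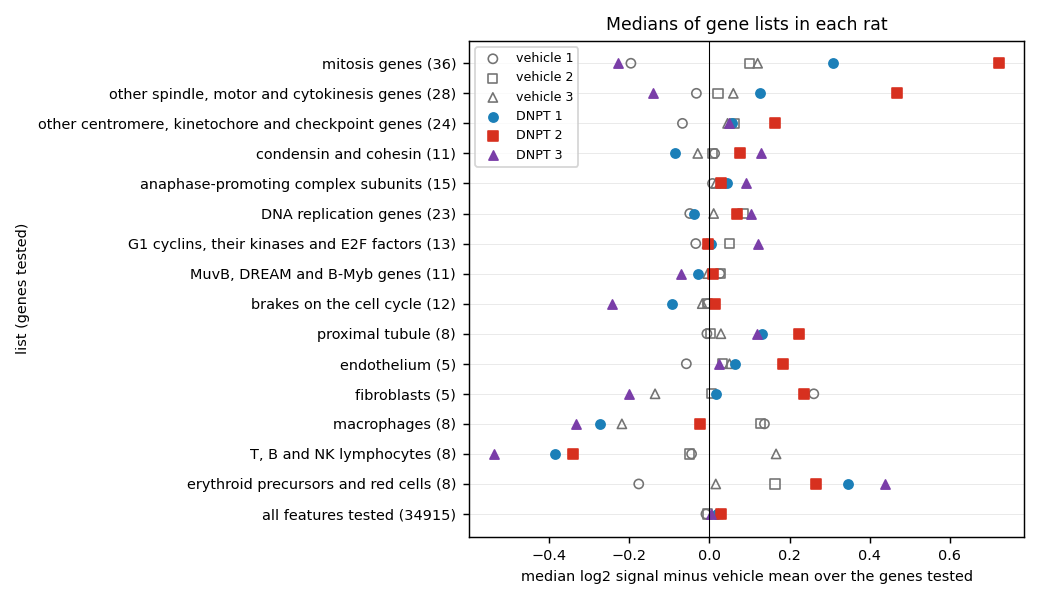
Median over the tested genes of each list (y axis, with the number tested) of the log2 signal minus the vehicle mean (x axis), in each rat. The mitosis genes spread from -0.23 in DNPT replicate 3 to 0.72 in DNPT replicate 2, and DNA replication genes from -0.05 to 0.10.

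Markers of other cells that could divide in the cortex were also examined. The medians of the lymphocyte, macrophage, endothelium and fibroblast lists had the same order of DNPT rats as the mitosis genes, replicate 2, 1, 3. Those of the red cell list did not. The order is not particular to these lists, since the medians of the proximal tubule markers had it too. So did the medians of all features, at 0.02, 0.03 and 0.005 in DNPT replicates 1, 2 and 3. Summed linear signals kept the order in the endothelium list but not in the lymphocyte, macrophage and fibroblast lists. Lymphocyte markers (8 tested of 10) had medians of -0.39, -0.34 and -0.54 in DNPT replicates 1, 2 and 3, and their summed linear signal was 1.87 to 1.97 in DNPT rats and 2.31 to 2.57 in vehicle rats. Of them Cd3d, Cd3e, Cd3g, Cd2 and Lck of T cells were lower and Cd79b of B cells higher at an unadjusted limma p under 0.05. In the DNPT group Cd3e was well above background on 1 array and Cd2 on 0, and the Cd79b value of DNPT replicate 2 was dropped as an outlier spot. The median and the sum of that rat, -0.34 and 1.87, are therefore without Cd79b. Macrophage markers (8 of 9) had medians of -0.27, -0.02 and -0.33, with Csf1r lower at an unadjusted limma p under 0.05 (-0.24, SE 0.09). Their summed signal was 58.8 to 77.4 in DNPT and 71.0 to 89.3 in vehicle rats. Markers of red cells and their precursors (8 of 10) had medians of 0.35, 0.27 and 0.44 and summed signals of 701 to 788 in DNPT and 544 to 670 in vehicle rats. Hemgn, hemogen, which is made by differentiating erythroid cells, had signals of -4.85, -4.35 and -4.53 in the DNPT rats and of -6.37, -5.31 and -5.89 in the vehicle rats, and Hemgn, Ahsp, Hba-a1 and Hbb-b1 were higher at an unadjusted limma p under 0.05. Vehicle replicate 1 was the lowest vehicle rat for 7 of 8 red cell markers, 4 of 5 endothelium markers and 30 of 36 mitosis genes. It was so for 3 of 8 lymphocyte, 0 of 8 macrophage and 0 of 5 fibroblast markers. The shares were 36.2% of all features and 39.4% of named genes. Markers of endothelium (5 of 6) had medians of 0.06, 0.18 and 0.02 in DNPT replicates 1, 2 and 3. Those of fibroblasts (5 of 5) had medians of 0.02, 0.24 and -0.20. Single genes differed from these medians. Emcn and Dcn were highest among the DNPT rats in replicate 3, and Col1a2 and Col3a1 in replicate 1. Summed signals of endothelium markers were 75.5 to 91.9 in DNPT and 71.7 to 75.3 in vehicle rats. Those of fibroblast markers were 16.5 to 18.5 in DNPT and 14.9 to 20.9 in vehicle rats. DNPT replicate 3 also differed in transcripts of plasma proteins made by hepatocytes, with a median of 3.54 over 7 genes and a signal of 3.76 for Alb, against -4.73 to 0.48 in the other 5 rats. The part of each of these in the values of the mitosis genes was not tested.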

How the data were processed

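Total RNA of renal cortex was labelled with Cy3 and hybridised to 1-colour Agilent arrays, per the labels' protocols. The deposited intensity values are Agilent's processed signals, written by Feature Extraction 10.7 (per the submitters' processing notes) for an array designed on rat build rn4 (per the file headers). The deposited value table gives a ratio, the processed signal over a constant of each array, with the scaling step not given in the sources used here; it served as an alternative.

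Processed signals were divided by the 75th percentile of non-control spots of the array and taken to log2, after 113 outlier-flagged values were dropped. A probe was tested if well above background on at least 3 of 6 arrays with at least 2 values per group, which kept 44305 of 61537 probes. Probe accessions, without versions, were matched to the RefSeq table of GRCr8: 28206 probes had 1 gene, 0 several and 33331 none. The brightest tested probe stood for a gene, which left 34915 features, of which 12687 were named genes. The groups were compared with limma 3.58.1 (R 4.3.3) with moderated, two-sided tests and Benjamini-Hochberg adjustment over all features. The fit was also run on simulated data, whose means and variances were taken from these arrays. An exact permutation test of 3 against 3 rats cannot go below p = 0.1. Each sample is labelled as a separate rat. The genes named in every rat were those at an unadjusted p under 0.05 or without overlap of the groups, with Mki67, Cdk1, Foxm1 and the 3 brightest. The members, gene lists and tests were chosen with earlier results of these data known. Deviations of same-numbered samples from their group means were not positively correlated, and replicate numbers were not used as a pairing in the main fit. The values of 1 lymphocyte marker are not reported here.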

Additional observations from a re-analysis of the deposited data

How the results depend on the processing

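Arrays were few, and 3 of 36 mitosis genes (Cenpa, Aurkb and Kif2c) were not above background on every array, so small differences in them were not detectable. Over all features, limma calls at an adjusted p of 0.05 went from 0 to 2 with normexp background correction of the median signal together with quantile normalization and to 1 with slide as a block. On leaving out 1 rat the calls were 0 to 623 (623 without DNPT replicate 1, 3 without vehicle replicate 2). Without DNPT replicate 1, slide and treatment cannot be told apart. Among the mitosis genes the calls were 0 to 1, and among the related pathway lists 0 to 1 (Cdkn2a), on leaving out 1 rat. Members higher at an unadjusted p under 0.05, 4 in the main setting, were 2 with slide as a block (Ccnb2 and Cdc25b) and 1 to 20 on leaving out 1 rat, and members lower were 0 to 1 (Aurkb). The sign turned for Cks2, from -0.01 to 0.0099 with median scaling, which adds the same amount to the change of every gene, to 0.0323 with array weights and to between -0.26 and 0.16 on leaving out 1 rat; for Foxm1, from 0.05 to -0.0614 with the mean over probes and to between -0.0497 and 0.15 on leaving out 1 rat; and for Kif11, from 0.12 to -0.0334 with the mean over probes. The mean over probes took in a Foxm1 probe with a change of -0.17 and a Kif11 probe with a change of -0.27. The cause of the other turns was not tested, and on leaving out 1 rat its group was also smaller. The median change of the other spindle genes was -0.06 without DNPT replicate 2. The per-rat medians of the members stayed at 0.26 to 0.33, 0.56 to 0.74 and -0.25 to -0.12 in DNPT replicates 1, 2 and 3 over 7 alternatives. The labels give both groups the replicate numbers 1 to 3, and the deviations of same-numbered samples correlated at -0.18, -0.06 and -0.18. Differently numbered samples were not compared in this way, so these values do not settle whether the numbers mark a pairing. No pairing was used in the main fit. With the replicate block 4 members were higher, as without it, and 3094 features had an unadjusted p under 0.05 instead of 4227.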
